A study of Mus musculus with 59 samples.

Results

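The 34 genes described here are a list of astrocyte identity, homeostatic and reactive genes, taken by name from a table of 51456 genes measured in mouse prefrontal cortex. All 34 were found by symbol in the table, and all 34 had a mean normalized count of at least 10 and entered the tests, which covered 16839 genes. Levels are given as normalized counts, a scale on which libraries can be set side by side for one gene, but which is not corrected for gene length, so levels are not compared between genes. The measurement was bulk mRNA sequencing of dissected prefrontal cortex from C57BL/6J mice on postnatal day 25, after 3 weeks (postnatal days 3 to 24) of a drug reaching the pups through the milk of their dams. By their labels, HT mice carry the Chd8-S62X allele in heterozygous form and WT mice are wild type. Each genotype received fluoxetine (a serotonin reuptake inhibitor), lithium (a mood stabilizer) or vehicle, in females and males. The 12 groups held 5 libraries each, except HT-labelled fluoxetine females with 4, which makes 29 HT-labelled and 30 WT-labelled libraries. Doses, dams and litters are not given in the labels used here, so pups of 1 dam may stand in the same group and p-values measure only the spread between these libraries.

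Astrocytes are the glial cells that take up glutamate and potassium from around neurons, hold water balance at blood vessels, supply neurons with metabolites and prune or stabilize synapses through secreted and phagocytic proteins. In cortex they form a network through gap junctions, and at the age studied they are completing their maturation. After injury or inflammation they raise intermediate filaments and a set of secreted proteins, a state called reactive. In bulk tissue, fewer astrocytes and less RNA per astrocyte cannot be told apart.

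Chd8, the chromatin remodeler whose gene carries the S62X allele, checks the labels. It had 5115, 5907 and 6626 normalized counts (lowest, median and highest) in the 29 HT-labelled libraries, against 2828, 3635 and 4229 in the 30 WT-labelled libraries. The groups did not overlap, with the HT-labelled libraries higher by 0.70 ± 0.027 on the log2 scale (SE; adjusted p = 9.23e-27, limma). That direction is opposite to a loss of transcript from the mutant allele, so the genotypes are called by their labels throughout. If the labels were exchanged, the sign of each genotype difference given here would turn, which was not tested. Depth, which can only be estimated, was about 25.8 to 36.9 M reads (M, 1e+06) per library. Markers of neighbouring tissue varied widely. Averaged over 7 genes of the olfactory bulb, the log2 level ran between 5.59 and 10.98, and 10 libraries exceeded the median of striatal genes by over 5 robust SDs. Results that rest on those 10 striatum-rich libraries are given both ways.

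Promoter sequences are shown for 4 members whose levels carry the results below: Serpina3n and Il33, which were lower in females, and Gfap and Aldh1l1, which went opposite ways from library to library. They are RefSeq windows of GRCm38.p6, from 250 bases before the transcription start to 50 bases after it, read in the direction of transcription, and 27 of the 34 members had such a window. The search covered both strands for TTCNNNGAA (the palindrome of STAT factors), TGGCNNNNNGCCA (the palindrome of nuclear factor I) and AACAATG (a SOX element), and none of these patterns lies within another. Capitals mark a match.

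Serpina3n, chr12:104406458-104406757, plus strand: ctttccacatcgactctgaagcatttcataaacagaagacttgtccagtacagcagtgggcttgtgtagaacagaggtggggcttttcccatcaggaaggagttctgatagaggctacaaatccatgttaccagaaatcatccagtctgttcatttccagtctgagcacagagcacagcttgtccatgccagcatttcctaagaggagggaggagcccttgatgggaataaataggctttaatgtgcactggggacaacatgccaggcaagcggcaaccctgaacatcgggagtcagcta

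Il33, chr19:29924863-29925162, plus strand, the first of its listed starts: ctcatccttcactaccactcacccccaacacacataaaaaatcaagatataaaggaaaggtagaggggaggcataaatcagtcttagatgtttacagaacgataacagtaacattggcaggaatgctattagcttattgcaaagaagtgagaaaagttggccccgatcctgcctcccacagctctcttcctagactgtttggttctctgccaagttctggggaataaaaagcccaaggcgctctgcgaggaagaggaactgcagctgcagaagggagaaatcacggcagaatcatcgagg

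Gfap, chr11:102897151-102897450, minus strand: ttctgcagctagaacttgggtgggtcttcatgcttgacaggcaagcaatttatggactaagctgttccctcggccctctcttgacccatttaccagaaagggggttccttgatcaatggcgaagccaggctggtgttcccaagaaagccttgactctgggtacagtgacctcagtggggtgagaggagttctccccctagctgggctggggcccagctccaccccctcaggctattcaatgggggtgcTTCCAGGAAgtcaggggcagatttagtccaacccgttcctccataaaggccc

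Aldh1l1, chr6:90550543-90550842, plus strand: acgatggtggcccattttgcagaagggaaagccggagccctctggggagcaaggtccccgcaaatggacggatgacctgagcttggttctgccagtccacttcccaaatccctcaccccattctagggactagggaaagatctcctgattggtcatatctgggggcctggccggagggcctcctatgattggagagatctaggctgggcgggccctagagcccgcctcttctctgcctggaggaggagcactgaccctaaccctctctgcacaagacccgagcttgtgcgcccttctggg

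The Gfap window holds TTCCAGGAA, a STAT-type match that begins 2 bases before the start. Windows of 4 members (Acsbg1, Aldoc, Gfap and Ntsr2) held the STAT letters, which 8.30% of all 32851 windows hold. No member window held the nuclear factor I letters (0.807% of all windows) or the SOX letters (3.78%). These matches describe the letters only. In GENCODE M21 the spans of Gfap and Aldh1l1 begin further upstream, so the RefSeq starts used here lie within them.

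Each of the 34 astrocyte genes was detected in each of the 59 libraries. Spread between libraries of one group differed widely among the members. The largest within-group SDs on the log2 scale belonged to Gfap (0.32), the astrocyte intermediate filament, Vim (0.26), vimentin, and Aqp4 (0.23), the water channel of astrocyte endfeet. The smallest belonged to Atp1b2 (0.058), a beta subunit of the sodium pump, Sparcl1 (0.066), a secreted protein that promotes synapse formation, and Glul (0.070), glutamine synthetase. The median SD was 0.15 over the members and 0.16 over all genes tested, and 11 of 34 members exceeded the latter. Gfap lay between 2762 normalized counts in 1 WT-labelled lithium female and 6733 in 1 HT-labelled vehicle male, a 2.44-fold range.

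The first comparison set HT-labelled against WT-labelled mice over the 3 treatments and both sexes. A transcription regulator, a sodium pump subunit and an engulfment protein were slightly higher in HT-labelled cortex, while an engulfment receptor and 2 secreted proteins were lower. Of 34 members, 3 rose (Id3, Atp1b2 and Mfge8) and 3 fell (Mertk, Chrdl1 and Serpina3n) at an adjusted p under 0.05. Of all genes tested 7.98% were called, 3.67% higher and 4.31% lower. The median log2 difference of the members was 0.039, with 27 of 34 above 0, against 0.0016 and 50.8% above 0 over all genes. The 6 changes were small, and the genotypes overlapped for each of the 6 called members.

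Among transcription regulators and receptors, all 5 members had a difference above 0 and 1 was called. Id3, an inhibitor of basic helix-loop-helix factors and a target of BMP signalling, had 612, 753 and 998 normalized counts (lowest, median and highest) in HT-labelled libraries, against 494, 676 and 896 in WT-labelled libraries. HT-labelled means were higher in 6 of 6 treatment and sex strata, by 0.18 ± 0.049 on the log2 scale (SE; adjusted p = 0.0158, limma). Within groups, the r of Id3 was 0.745 with the meningeal mean and −0.733 with the excitatory neuron mean over 59 libraries. The part of other tissue in the Id3 result was not tested. Sox9, the transcription factor that sets glial fate, differed by 0.12 ± 0.046 without passing (adjusted p = 0.0912, limma). Fgfr3, a fibroblast growth factor receptor, Ntsr2, a neurotensin receptor, and Gpr37l1, an orphan receptor of astrocytes, differed by 0.064, 0.079 and 0.034 on the log2 scale.

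Of the cytoskeletal and calcium-binding members, none was called. Gfap had 2920, 3987 and 6733 normalized counts in HT-labelled libraries, against 2762, 3548 and 5118 in WT-labelled libraries, a log2 difference of 0.22 ± 0.082 (adjusted p = 0.0913, limma). Its 6 highest libraries were all HT-labelled, and they stood between ranks 1 and 9 of 59 in olfactory bulb markers. Vim and S100b, a calcium-binding protein used as an astrocyte marker, differed by 0.044 and −0.022.

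Among the 7 transporters and channels all differences were above 0 and 1 passed. Atp1b2 had 9939, 11015 and 12569 normalized counts in HT-labelled libraries, against 9796, 10570 and 11265 in WT-labelled libraries. The difference of 0.070 ± 0.016 on the log2 scale (adjusted p = 0.00389, limma) was small, but HT-labelled means were higher in 6 of 6 strata. Kcnj10, the Kir4.1 potassium channel that clears potassium, and Slc4a4, a sodium bicarbonate cotransporter, differed by 0.11 ± 0.040 and 0.13 ± 0.053, with adjusted p-values of 0.0776 and 0.129 (limma). None of the junction and adhesion genes (the connexins Gja1 and Gjb6, the claudin Cldn10, Mlc1 and its partner Hepacam) and none of the 6 metabolic genes passed, with the lowest adjusted p at 0.340 and 0.153 in those groups (limma).

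The phagocytosis and secretion group was split. Mfge8, the bridging protein that coats dying cells for engulfment, had 3032, 3582 and 4188 normalized counts in HT-labelled libraries, against 2813, 3297 and 4292 in WT-labelled libraries. It was higher in HT-labelled means in 6 of 6 strata, by 0.12 ± 0.031 on the log2 scale (adjusted p = 0.0125, limma). Mertk, a receptor that recognizes such coated targets through other bridging proteins and is also made by microglia, went the other way.

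Mertk had 1002, 1453 and 1738 normalized counts in HT-labelled libraries, against 1252, 1579 and 1923 in WT-labelled libraries. It was lower in HT-labelled means in 6 of 6 strata, by −0.14 ± 0.041 (adjusted p = 0.0302, limma), and without a filter on low values the adjusted p was 0.0568. Megf10, another engulfment receptor, differed by 0.096 ± 0.040 without passing (adjusted p = 0.123, limma). Microglial markers moved with Mertk: 10 of 12 were below 0 in this contrast with a median of −0.053, and 1 of them, Siglech, was called at −0.16. Summed over the 12 microglial genes, levels were 10467 to 15383 in HT-labelled libraries and 9724 to 17194 in WT-labelled libraries, with no marker at 0. Within groups, the r of Mertk with the microglial mean was 0.672 over 59 libraries. Their part in the result was not tested.

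Serpina3n, a secreted serine protease inhibitor raised in reactive astrocytes and also made by oligodendrocytes, had 127, 184 and 247 normalized counts in HT-labelled libraries, against 153, 206 and 276 in WT-labelled libraries. It was lower in HT-labelled means in 6 of 6 strata, by −0.18 ± 0.042 (adjusted p = 0.00333, limma). It belongs to a family of near-identical paralogs between which the authors' counting could split reads, and the other 10 Serpina3 genes in the table had medians of at most 2.63 normalized counts. Oligodendrocyte markers moved the opposite way, with 12 of 12 above 0, a median of 0.17, and 1 called, Aspa, at 0.27. Their summed level was 111116 to 238250 in HT-labelled libraries and 73951 to 267162 in WT-labelled libraries. With oligodendrocyte, olfactory bulb, striatal and meningeal marker levels as covariates, the Serpina3n difference was −0.24 (adjusted p = 7.09e-05, limma).

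Chrdl1, a secreted BMP antagonist through which astrocytes promote synapse maturation, had 638, 802 and 1045 normalized counts in HT-labelled libraries, against 683, 906 and 1204 in WT-labelled libraries. The difference was −0.16 ± 0.045 (adjusted p = 0.0213, limma), with lower HT-labelled means in 5 of 6 strata, and −0.12 with the 4 marker levels as covariates (adjusted p = 0.0509, limma). Clu, the apolipoprotein clusterin, Sparcl1 and Il33, an alarmin cytokine, were not called.

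Of the 6 genotype calls, Atp1b2, Chrdl1 and Serpina3n remained when the 10 striatum-rich libraries were left out, and Id3, Mertk and Mfge8 had adjusted p-values of 0.0529, 0.0639 and 0.125 there (limma). In females alone none of the 34 passed, and in males alone 1 did (Atp1b2), in fits on 29 and 30 libraries.

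**Figure D1:**
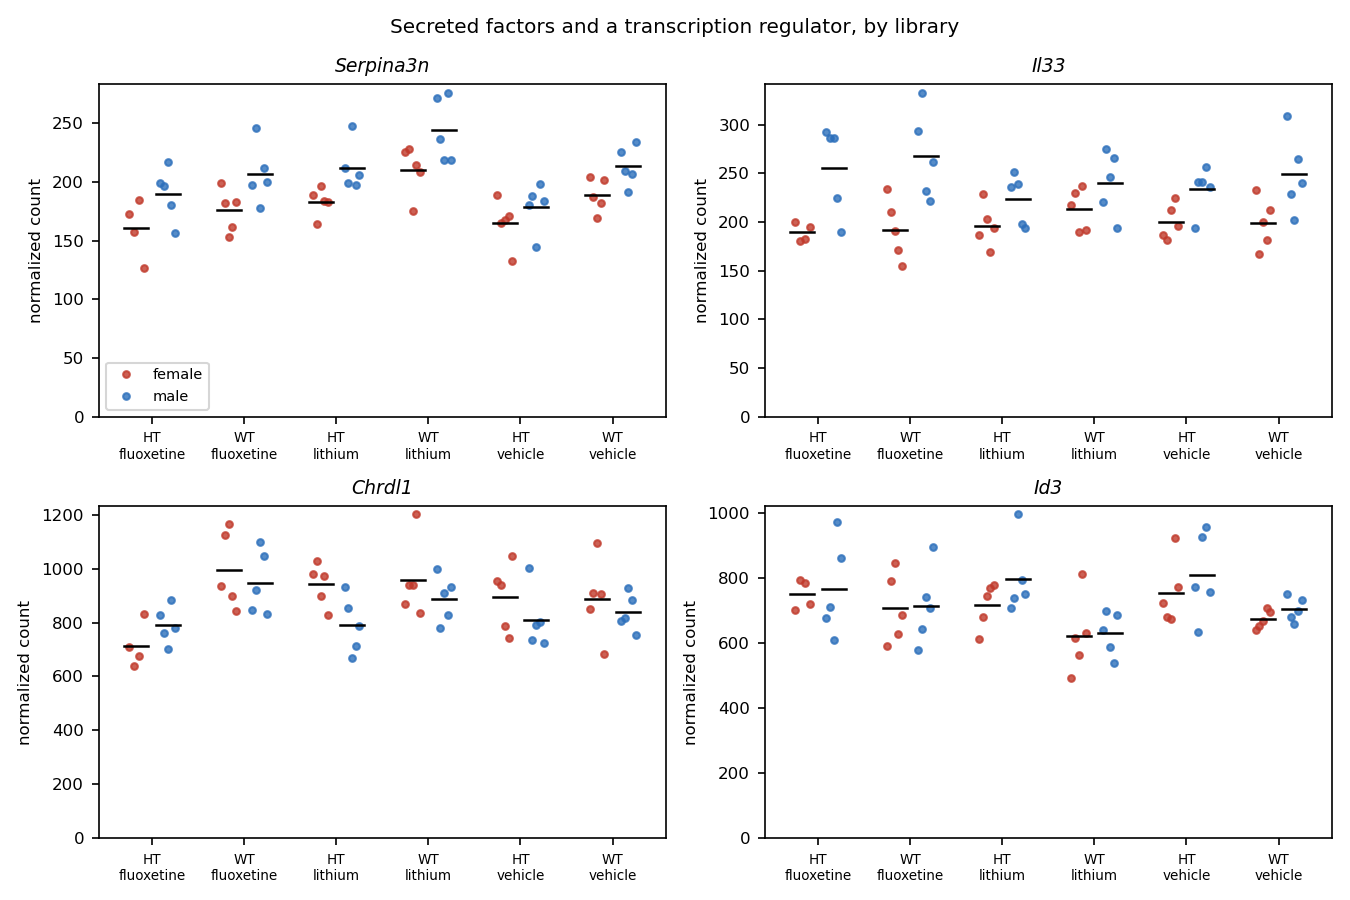
Normalized counts (y axis) of Serpina3n, Il33, Chrdl1 and Id3 in each of 59 libraries, by genotype label and treatment (x axis), with females in red, males in blue and bars at group means. Serpina3n lies lower in HT-labelled than WT-labelled groups, Il33 and Serpina3n lie lower in females than males, and Chrdl1 separates the genotypes most in fluoxetine-treated mice.

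**Figure D2:**
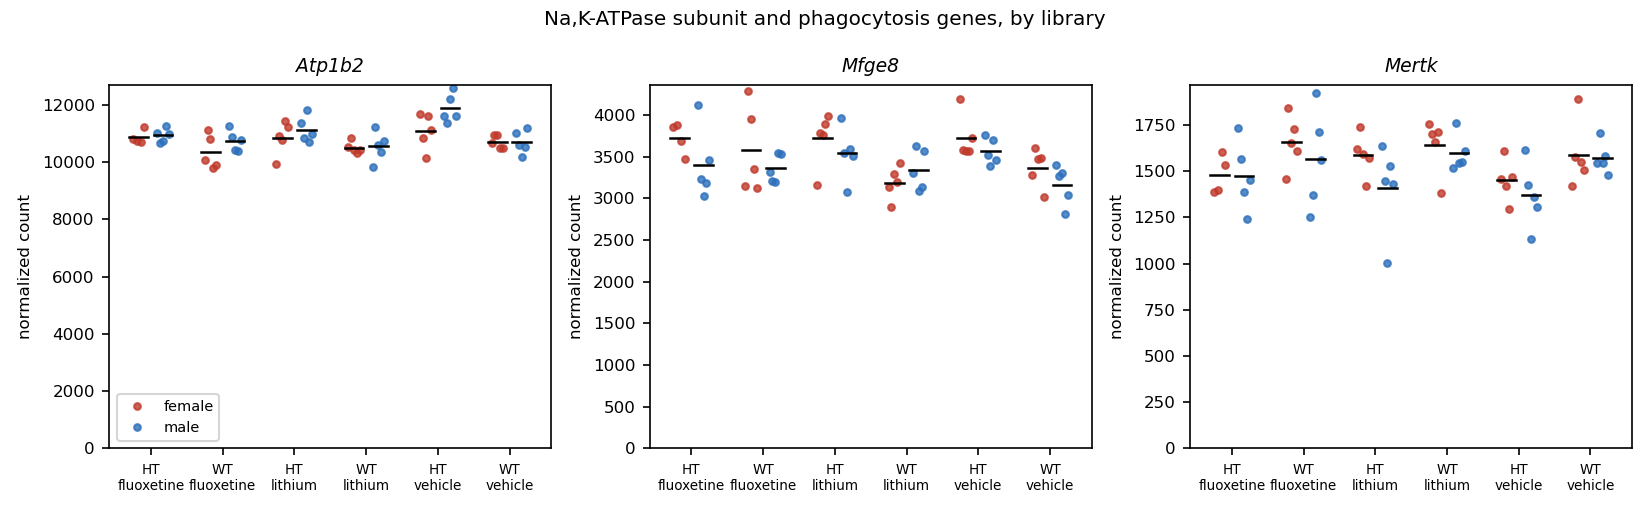
Normalized counts (y axis) of Atp1b2, Mfge8 and Mertk in each of 59 libraries, by genotype label and treatment (x axis), with females in red, males in blue and bars at group means. Atp1b2 and Mfge8 means are higher, and Mertk means lower, in HT-labelled than WT-labelled mice in 6 of 6 treatment and sex strata, and the points overlap.

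Within single treatments the genotype comparison rests on 19 or 20 libraries, and few genes passed anywhere. In fluoxetine-treated mice Chrdl1 fell, the only call among 34 members, against 0.849% of all genes tested (0.463% lower). It had 638, 761 and 883 normalized counts in the 9 HT-labelled fluoxetine libraries, against 830, 928 and 1167 in the 10 WT-labelled fluoxetine libraries, and the groups overlapped at their edges. The log2 difference was −0.37 ± 0.080 (adjusted p = 0.0126, limma), with lower HT-labelled means in 2 of 2 sexes. In vehicle-treated mice Chrdl1 averaged 853 ± 121 in HT-labelled and 863 ± 111 in WT-labelled libraries (SD, n = 10 each), and in lithium-treated mice 866 ± 118 in HT-labelled and 923 ± 118 in WT-labelled libraries (SD, n = 10 each).

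Other tissue moved in the same fluoxetine contrast. Oligodendrocyte markers were above 0 in 12 of 12, with a median log2 difference of 0.50 and 1 called, and striatal markers in 11 of 12, with a median of 0.36 and none called, against 50.5% of all genes above 0. Within groups, the r of Chrdl1 was −0.421 with the oligodendrocyte mean and −0.399 with the striatal mean over 59 libraries. With the 4 marker levels as covariates the Chrdl1 difference was −0.24 (adjusted p = 0.133, limma), and without the 10 striatum-rich libraries −0.33 (adjusted p = 0.0796, limma).

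In vehicle-treated mice none of the 34 was called, against 0.202% of all genes, and 6 members were higher and 2 lower at an unadjusted p under 0.05 (10.6% of all genes). The 5 smallest p-values belonged to Atp1b2 (log2 difference 0.098), Serpina3n (−0.23), Mfge8 (0.16), Slc25a18, a mitochondrial glutamate carrier (0.23), and Ntsr2 (0.14), with adjusted p-values of 0.141 to 0.360 (limma). Slc25a18 overlaps the abundant gene Atp6v1e1 on the opposite strand, and whether counting used strand is not given in the sources used here.

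In lithium-treated mice none was called either, against 0.267% of all genes, and 5 members were higher and 1 lower at an unadjusted p under 0.05 (10.1% of all genes). Sox9 averaged 581 ± 67.4 in HT-labelled and 483 ± 76.8 in WT-labelled lithium libraries (SD, n = 10 each), a log2 difference of 0.27 ± 0.079 (adjusted p = 0.133, limma). Leaving out replicate 5 of the WT-labelled lithium males brought its adjusted p to 0.0427 (limma). It passed in no other fit that left out 1 library, and the highest adjusted p was 0.3035 (limma). Id3 (0.28), Mfge8 (0.15), Serpina3n (−0.20) and Atp1b2 (0.062) came next.

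The fluoxetine comparisons asked what the drug did to the same genes. Against vehicle, over both genotypes, no astrocyte gene was called (limma), against 0.0653% of all genes, and 3 members were higher and 3 lower at an unadjusted p under 0.05 (11.9% of all genes). The smallest p-values belonged to 2 metabolic genes. Aldoc, the aldolase isoform of astrocytes, had 16094, 18670 and 22757 normalized counts in fluoxetine libraries, against 15004, 16815 and 21171 in vehicle libraries, a log2 difference of 0.15 ± 0.037 (adjusted p = 0.0752, limma).

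Aldh1l1, the cytosolic folate enzyme used as a pan-astrocyte marker, had 1598, 2053 and 2372 normalized counts in fluoxetine libraries, against 1511, 1787 and 2324 in vehicle libraries. Its difference was 0.16 ± 0.048 (adjusted p = 0.184, limma). The groups overlapped for both genes. Ntsr2 (0.10), Atp1b2 (−0.048) and Slc4a4 (−0.14) followed. Aldoc passed with olfactory bulb markers as a covariate (0.13, adjusted p = 0.0460, limma), and also when 1 of 3 libraries was left out in turn (replicate 4 of the HT-labelled fluoxetine males, replicate 1 of the HT-labelled vehicle males or replicate 5 of the WT-labelled fluoxetine males). It passed in no other fit that left out 1 library, and the highest adjusted p was 0.172 (limma).

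Within WT-labelled mice, fluoxetine gave no call among the members (limma), against 0.19% of all genes, and 6 members were higher at an unadjusted p under 0.05 and none lower (12.5% of all genes). These were led by Aldoc (0.18), Aldh1l1 (0.20), Ntsr2 (0.16), Acsbg1, a fatty acid activating enzyme (0.10), and Chrdl1 (0.17), with adjusted p-values between 0.100 and 0.347. Without replicate 5 of the WT-labelled fluoxetine males, Aldoc and Aldh1l1 were both called (adjusted p = 0.0456 and 0.0479, limma). Neither passed in any other fit that left out 1 library, with highest adjusted p-values of 0.2125 and 0.3096 (limma). Within HT-labelled mice, none of all genes was called (0% of 16839, limma; 5.09% at an unadjusted p under 0.05), and of the members 1 was higher and 4 lower at an unadjusted p under 0.05. These were Slc25a18 (−0.24), Atp1b2 (−0.072), Aqp4 (−0.23), Chrdl1 (−0.18) and Aldoc (0.12).

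Serpina3n was higher in lithium than in vehicle libraries. It was the only call among 34 members over both genotypes, where 4.41% of all genes were called (2.8% higher), so the count stood near that background. Serpina3n had 164, 210 and 276 normalized counts in lithium libraries, against 132, 188 and 234 in vehicle libraries, and the groups overlapped. The log2 difference was 0.19 ± 0.051 (adjusted p = 0.0223, limma), with higher lithium means in 4 of 4 genotype and sex strata. It was 0.20 ± 0.072 within HT-labelled mice and 0.17 ± 0.072 within WT-labelled mice, where neither passed (adjusted p = 0.253 and 0.325, limma). Without the 10 striatum-rich libraries it was 0.20 (adjusted p = 0.0589, limma). In females alone and in males alone it did not pass. Within groups, the r of Serpina3n with the oligodendrocyte mean was 0.526 over 59 libraries, and it was still called with the 4 marker levels as covariates. The part of oligodendrocytes in this difference was not tested.

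Over all 34 members the median log2 difference was −0.0059, with 14 above 0, against −0.00038 and 49.8% above 0 over all genes. Serpina3n aside, none passed. Aqp4, at −0.20 ± 0.071, Plpp3, a lipid phosphatase, at −0.084 ± 0.031, and Mlc1, a membrane protein of endfeet, at −0.084 ± 0.031, had adjusted p-values of 0.0947, 0.112 and 0.117 (limma). Aqp4 had 3523, 4203 and 5529 normalized counts in lithium libraries, against 3957, 4826 and 6846 in vehicle libraries. Meningeal markers were lower in the same contrast in 12 of 12, with a median of −0.29 and 2 called (Col3a1 and Lum), and their summed level was 6156 to 11693 in lithium and 7908 to 23033 in vehicle libraries. Within groups, the r of Aqp4 with the meningeal mean was 0.737 over 59 libraries. It was −0.879 with excitatory neuron, 0.726 with migrating neuroblast and 0.648 with olfactory bulb markers. The part of the meninges or of other tissue in these values was not tested. With replicate 1 of the HT-labelled vehicle males left out Aqp4 was called as well, and in no other fit that left out 1 library.

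Within each genotype lithium gave no member call (limma), against 0.238% of all genes in HT-labelled and 0.214% in WT-labelled mice. At an unadjusted p under 0.05, 2 members were higher and 2 lower in HT-labelled mice (10.2% of all genes), and 1 was higher and 2 lower in WT-labelled mice (11.9%). Behind Serpina3n, these comparisons were led by Atp1b2 (−0.061), Sox9 (0.17), Mlc1 (−0.096) and Aqp4 (−0.18) in HT-labelled mice, and by Plpp3 (−0.098), Aqp4 (−0.22), Id3 (−0.15) and Mlc1 (−0.071) in WT-labelled mice.

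Lithium set directly against fluoxetine gave 3 member calls of 34, 1 higher and 2 lower. Of all genes 8.88% were called (4.51% higher and 4.37% lower), so the count stood near that background. Serpina3n was higher by 0.22 ± 0.052 on the log2 scale (adjusted p = 0.00495, limma), with 164, 210 and 276 normalized counts in lithium libraries, against 127, 183 and 246 in fluoxetine libraries. Cldn10, a claudin of tight junctions, had 455, 538 and 697 normalized counts in lithium libraries, against 449, 596 and 750 in fluoxetine libraries. It was lower by −0.16 ± 0.053 (adjusted p = 0.0442, limma).

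Aldh1l1 had 1523, 1809 and 2128 normalized counts in lithium libraries, against the fluoxetine values above, a difference of −0.15 ± 0.048 (adjusted p = 0.0463, limma). For both genes lithium means were lower in 4 of 4 strata, and all groups overlapped. These 2 calls were near the threshold. With the 4 marker levels as covariates Cldn10 had an adjusted p of 0.0551, and with the lithium and fluoxetine groups alone 0.0734, while Aldh1l1 had 0.0528 without trend or robust shrinkage (limma). Without a filter on low values the adjusted p-values were 0.0882 for Cldn10 and 0.0900 for Aldh1l1 (limma). Without the 10 striatum-rich libraries their adjusted p-values were 0.221 for Cldn10 and 0.311 for Aldh1l1 (limma), and the call was lost in 21 and 24 of the 59 fits that leave out 1 library (highest adjusted p 0.106 and 0.107), each time a lithium or fluoxetine library. The lithium and fluoxetine comparisons with vehicle share the vehicle libraries, and this one shares its drug libraries with both.

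Female and male cortex differed in an alarmin cytokine and a secreted protease inhibitor. Over all groups, 0 members rose and 2 fell in females, Il33 and Serpina3n, against 0.154% of all genes called in either direction and 0.0713% lower. Il33, which nuclei of astrocytes and oligodendrocytes hold and release on damage, had 155, 195 and 237 normalized counts in the 29 female libraries, against 190, 241 and 333 in the 30 male libraries. Female means were 199 ± 21.9 and male means 245 ± 36.8 (SD), and the sexes overlapped. The log2 difference was −0.30 ± 0.050 (adjusted p = 0.00028, limma), with lower female means in 6 of 6 genotype and treatment strata.

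Serpina3n had 127, 183 and 228 normalized counts in females, against 145, 203 and 276 in males. It was lower in female means in 6 of 6 strata, by −0.20 ± 0.042 (adjusted p = 0.0135, limma). Oligodendrocyte markers were below 0 in 12 of 12 in the same contrast, with a median of −0.058 and none called, and summed levels of 88971 to 230041 in females and 73951 to 267162 in males. Within groups, the r with the oligodendrocyte mean was 0.586 for Il33 and 0.526 for Serpina3n over 59 libraries. With the 4 marker levels as covariates the female minus male differences were −0.27 for Il33 (adjusted p = 0.000101, limma) and −0.17 for Serpina3n (adjusted p = 0.0141, limma). Fgfr3 had the next smallest p, at 0.13 ± 0.038 (adjusted p = 0.244, limma).

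**Figure D3:**
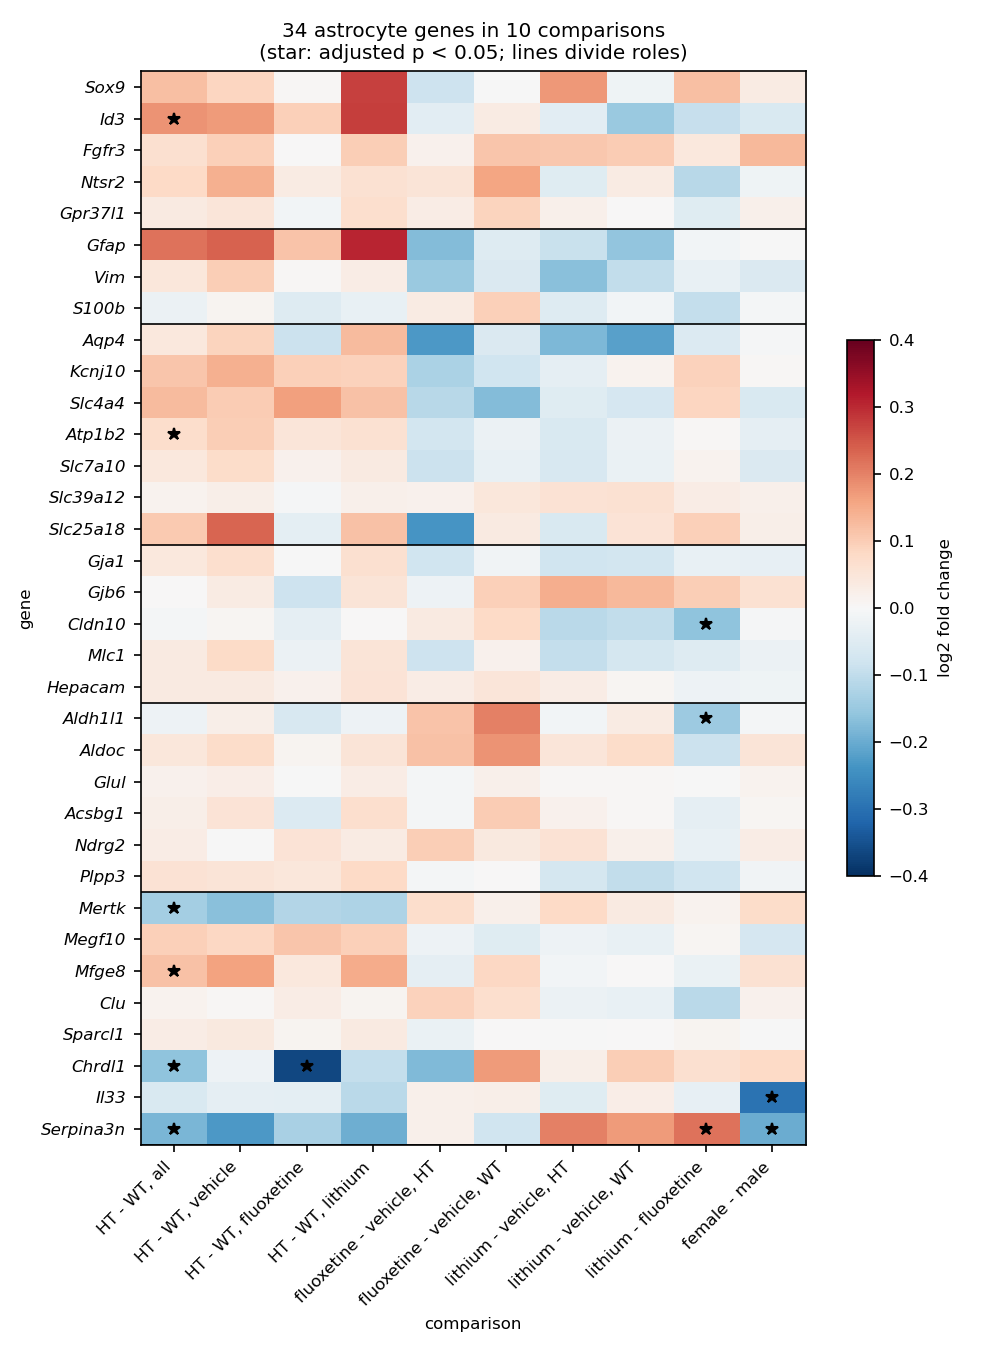
Log2 fold changes (colour) of the 34 astrocyte genes (rows, grouped by role) in 10 comparisons (columns), with a star where the adjusted p was under 0.05. The 12 starred cells fall on 9 genes, 6 of them in the genotype comparison over all treatments, and the drug columns within a single genotype hold none.

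Whether the effects depended on each other was tested by interaction terms. None of 16839 genes, and so none of the members, was called in any of the 5 (0% each, limma). For genotype by fluoxetine, 6.18% of all genes and 2 members passed an unadjusted p under 0.05, both below 0: Chrdl1 at −0.35 ± 0.11 and Slc25a18 at −0.27 ± 0.12, with adjusted p-values of 0.607 and 0.722. The larger Chrdl1 difference in fluoxetine-treated mice is therefore not shown to differ from that in vehicle-treated mice. For genotype by lithium, sex by genotype, sex by fluoxetine and sex by lithium, no member passed an unadjusted p under 0.05, against 2.29%, 3.15%, 3.56% and 2.6% of all genes.

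A second list of 60 astrocyte genes and a list of reactive astrocyte genes (28 of 32 tested) were read beside the members. In the genotype comparison over all treatments 4 of the 60 rose and 0 fell, against 3.67% higher and 4.31% lower over all genes, so the count stood near that background: Notch1, a receptor of the Notch pathway (0.16), Pla2g7, a secreted phospholipase (0.14), Slc14a1, a urea transporter (0.20), and Msi1, an RNA-binding protein of neural progenitors (0.14). None of the 28 reactive genes passed there. In the fluoxetine-treated mice Nfia, a nuclear factor I gene of gliogenesis, was the only call of the 60, against 0.849% of all genes. It was higher in HT-labelled libraries by 0.21 (adjusted p = 0.0422, limma). Under fluoxetine within WT-labelled mice it was again the only call of the 60, against 0.19% of all genes, and lower by −0.25 (adjusted p = 0.0318, limma). Those comparisons share the WT-labelled fluoxetine libraries.

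Lithium against vehicle lowered 2 of the 60, Fjx1 (−0.16) and Lxn (−0.16), and 2 of the 28 reactive genes, Ggta1 (−0.24) and Fbln5 (−0.24), against 1.61% of all genes called lower. Differences were above 0 in 15 of 60 and 7 of 28, against 49.8% of all genes, with medians of −0.050 and −0.10, and most of these genes did not pass. Meningeal markers were lower in the same contrast, as given above for Aqp4, with Col3a1 (−0.39) and Lum (−0.45) called. Their part in these values was not tested. Against fluoxetine, the calls of the 60 were lower Cst3, cystatin C (−0.10), Mt1, a metallothionein (−0.15), and Fjx1 (−0.19). Of the 28 reactive genes only Aspg was called, higher in lithium libraries (0.38). Of all genes 4.37% were called lower and 4.51% higher there, so these calls stood near that background.

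The members did not move as a block from library to library. After each group's mean was removed, the median r over the 561 pairs of members was 0.218, with a range of −0.725 to 0.913 (59 libraries, log2 scale). The closest pairs were Gfap with Aqp4 (0.913), Slc4a4 with Megf10 (0.861) and Gfap with Slc4a4 (0.860), and the most opposed were Gfap with Clu (−0.725) and Gfap with Aldh1l1 (−0.717). Acsbg1, Glul and Mlc1 followed the mean of the other members most closely (0.859, 0.850 and 0.824), whereas Serpina3n (−0.103) and Aldh1l1 (−0.196) did not follow it. By role, the median r was 0.468 among the 6 metabolic genes, 0.446 among the 7 transporters and 0.013 among the 5 regulators and receptors. All pairs share libraries and their scaling.

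The opposed members tracked markers of neighbouring tissue. Within groups, Gfap had an r of 0.790 with the olfactory bulb mean, 0.857 with migrating neuroblast markers and −0.940 with excitatory neuron markers over 59 libraries. Slc4a4 (0.793), Megf10 (0.708), Aqp4 (0.648), Vim (0.604) and Id3 (0.520) were also above 0.5 with the bulb mean, while Clu (−0.727), Aldh1l1 (−0.672), Mertk (−0.640) and Aldoc (−0.592) were below −0.5. Leaving out the 2 libraries farthest from the median changed the bulb r of Gfap to 0.807 and that of Clu to −0.750.

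The library with the highest bulb markers, an HT-labelled vehicle male, had 6733 normalized counts of Gfap, 13268 of Clu and 1628 of Aldh1l1. The library with the lowest, a WT-labelled fluoxetine male, had 3940 of Gfap, 17290 of Clu and 2203 of Aldh1l1. In the genotype contrast 6 of 7 bulb genes were above 0 with a median of 0.30 and none called, and their summed level was 3615 to 20573 in HT-labelled and 3327 to 14632 in WT-labelled libraries, with no bulb gene at 0. With the bulb level as a covariate, 8 members were called in the genotype comparison, the 6 above with Gfap and Slc4a4. The share of all genes called in that fit was not computed, so the 8 cannot be set against a background.

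**Figure D4:**
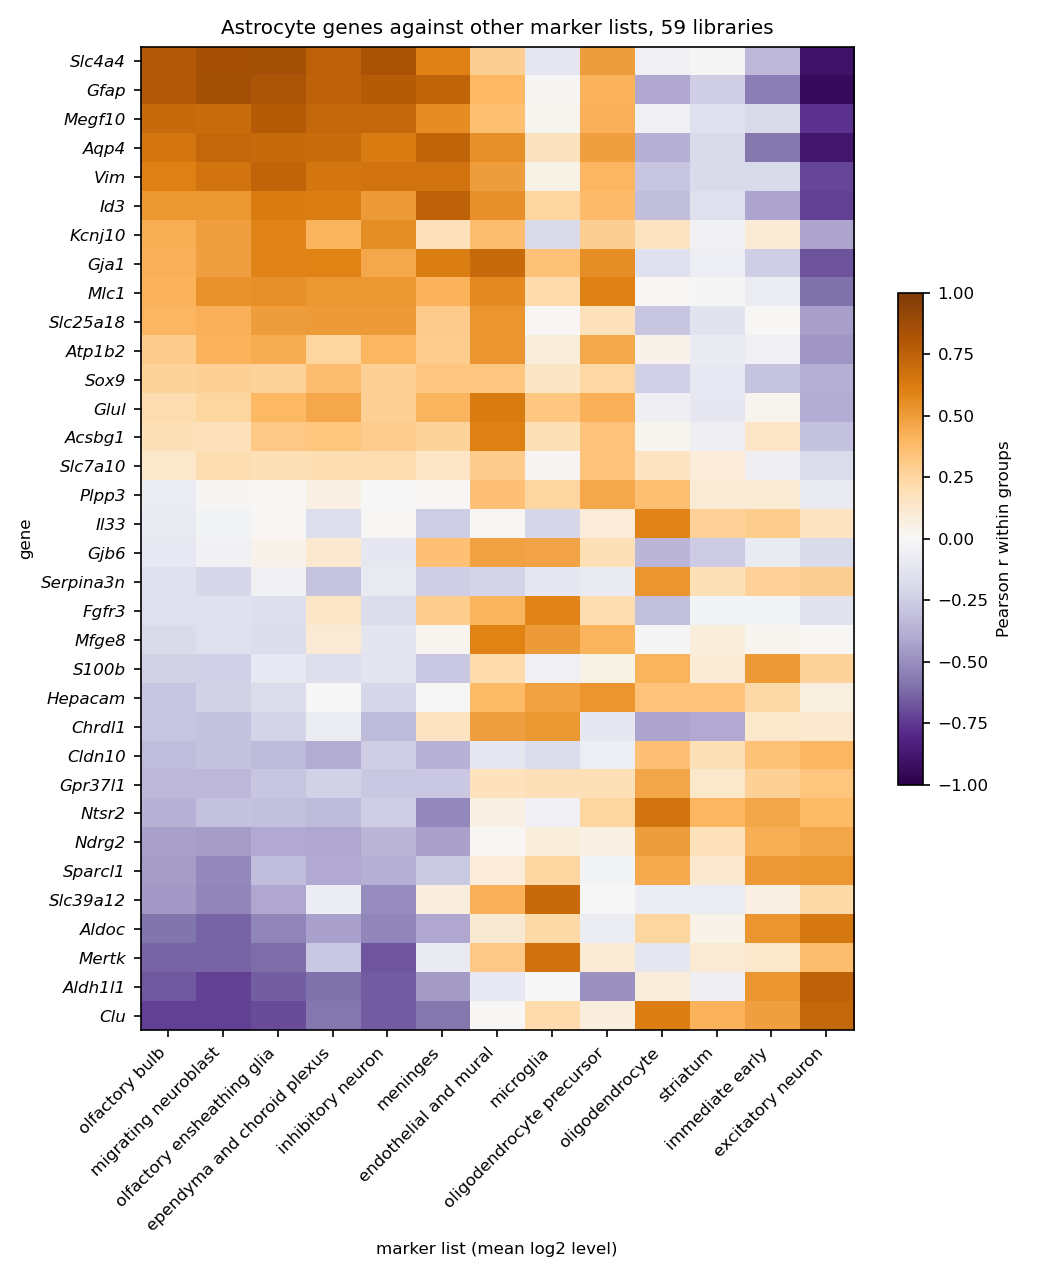
Pearson r within groups (colour) of each of the 34 astrocyte genes (rows, in order of r with olfactory bulb markers) with the mean log2 level of 13 other marker lists (columns), over 59 libraries. Slc4a4, Gfap and Megf10 at the top reach 0.793, 0.790 and 0.708 with bulb markers, and Clu at the bottom −0.727, with the opposite colours against excitatory neuron markers.

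**Figure D5:**
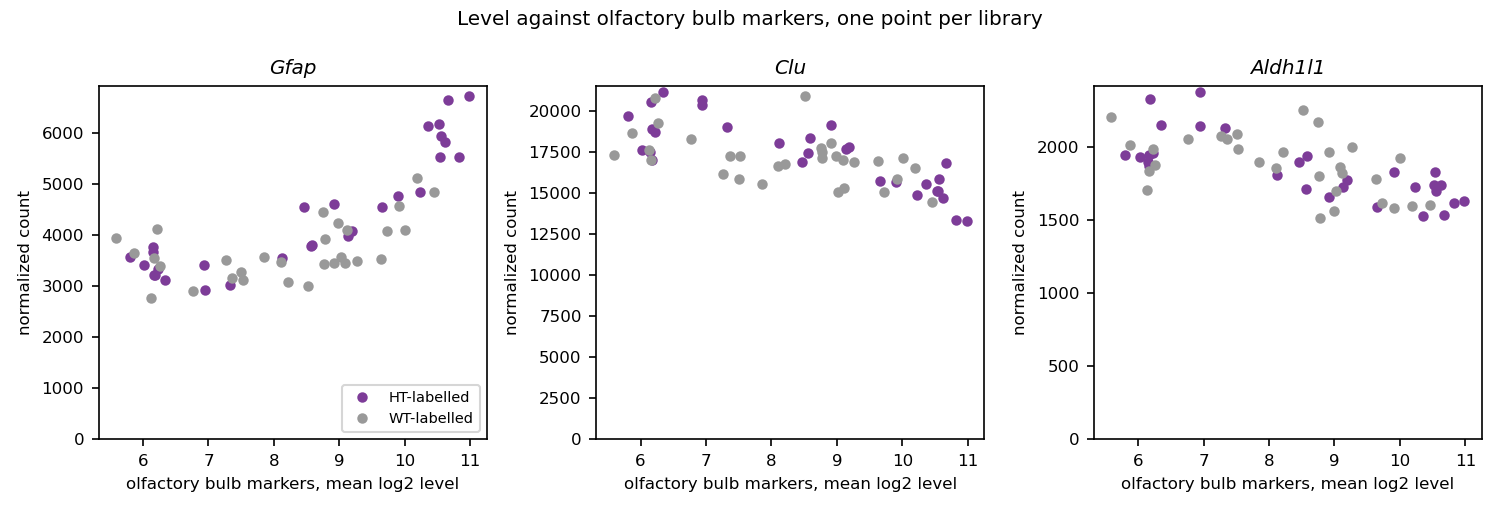
Normalized counts of Gfap, Clu and Aldh1l1 (y axes) against the mean log2 level of 7 olfactory bulb genes (x axis), 1 point per library, HT-labelled in purple and WT-labelled in grey. Gfap is highest, and Clu and Aldh1l1 are among their lowest, in the libraries with bulb levels near 11.

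Outside the list, the genes whose level followed the mean of the 34 members most closely within groups, among 16805 compared, were Slc1a3, the glutamate transporter GLAST (r = 0.780), Bcan (0.774), Cdc42ep4 (0.774), Rgcc (0.769), Apoe (0.760), Sparc (0.746), Ctdsp1 (0.745), Aldh4a1 (0.744), Cavin1 (0.727) and Wwtr1 (0.725). Of these, Slc1a3, Apoe and Sparc stand in the second astrocyte list. Over its 60 genes the median r was 0.392, against 0.013 over all genes outside the members, and 10 of the 60 were among the 100 closest. The mean of endothelial and mural markers also followed the members' mean (r = 0.737), as did that of the second astrocyte list (0.863).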

How the data were processed

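The deposited table holds, for each of 59 libraries and 51456 genes, a normalized count signal that the authors made from their reads. The submitters' processing notes name GRCm38, DESeq2 1.19.11, Salmon 0.11.2 and R 3.6.0 without saying what each did. Values are not whole numbers, and no count model was run. Of the genes, 51285 carried a symbol, 17301 were at 0 in every library, and summed signal was 30.3 to 33.7 M (M, 1e+06). Depth was estimated by taking the most frequent value under 2 in a library, 0.854 to 1.31, as 1 read. Only 4.64% to 25.2% of values under 100 in a library were whole multiples of it (within 0.01), so reads could not be recovered.

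limma 3.58.1 in R 4.3.3 was fitted to log2(value + 1) for genes with a mean of at least 10, with 12 group means, trend and robust shrinkage, and Benjamini-Hochberg adjustment over 16839 genes (call at adjusted p under 0.05). Fold changes are on that scale. Comparisons of 1 factor average over the others. The procedure was run on simulated data with known changes and independent noise for each gene. Those data hold none of the tissue variation that genes share here, so they cannot show how it affects the calls. The 34 members and the other lists were chosen with earlier results of these data known. Text names every called member, otherwise the 5 smallest p-values per comparison, the 3 highest and 3 lowest SDs, the 10 closest other genes and called genes of the astrocyte lists, with further members as values. Correlations use log2 values after subtracting group means and carry no p. Gene positions were taken from GENCODE M21. Alternatives were other scaling, shrinkage, filter, pseudocount, samples, a replicate block, single sexes and tissue covariates.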

Additional observations from a re-analysis of the deposited data

Results flagged for a closer look

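In each of the 12 groups, the highest or lowest library of a gene was marked when its gap to the next, divided by the group's range, passed the 95% limit of Dixon's test. Of 408 sets of 1 gene in 1 group, 22 were marked (5.39%), in 18 genes, and chance alone marks about 1 in 20. No cause was tested.

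Library 5 of the WT-labelled vehicle males was high for 3 genes. Its Gfap of 4846 normalized counts stood above 3456 to 3552 in the others (gap ratio 0.931), its Vim of 1880 above 954 to 1222 (0.711) and its Slc4a4 of 6517 above 5022 to 5343 (0.786). Library 1 of the HT-labelled vehicle males was also high for 3 genes: Slc39a12, a zinc transporter, at 1734 above 1410 to 1468 (0.821), Gjb6, connexin 30, at 2093 above 1444 to 1564 (0.815), and Chrdl1 at 1004 above 722 to 802 (0.716).

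Library 3 of the HT-labelled lithium males was high for Megf10, at 988 above 699 to 775 (0.738), and for Serpina3n, at 247 above 198 to 212 (0.718). Library 1 of the HT-labelled lithium females was low for Glul, at 47032 below 51406 to 52964 (0.737), and for Mfge8, at 3165 below 3763 to 3989 (0.726). Library 2 of the WT-labelled fluoxetine males was high for Clu, at 20912 above 16484 to 17290 (0.818), and for Sparcl1, at 50528 above 45248 to 46259 (0.809).

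Among the other fluoxetine libraries, HT-labelled females were marked for Atp1b2 (gap ratio 0.831) and Plpp3 (0.871), HT-labelled males for Slc7a10, a neutral amino acid transporter (0.753), and WT-labelled females for Sox9 (0.718), each for a high library. The Plpp3 library had 5854 normalized counts, above 5804 to 5811 in the others, so its high ratio came from a narrow range. WT-labelled fluoxetine males were marked for a low Slc39a12 (0.821) and a high Gja1 (0.766). In lithium libraries, WT-labelled females were marked for a low Mertk (0.739) and a high Chrdl1 (0.714). In vehicle libraries, HT-labelled females were marked for a high Mfge8 (0.747) and WT-labelled females for a high Gjb6 (0.787).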

How the results depend on the processing

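The share of all genes called was computed for the main fit only. Counts of members called under the other settings therefore have no background beside them. TMM scaling (largest shift of the median gene 0.0070 on the log2 scale), a pseudocount of 0.5 and shrinkage without trend or robust steps moved no count of called members by over 1.5 times. Without a filter on low values lithium against fluoxetine called 1 member (Serpina3n), and with the groups of the contrast alone lithium against vehicle called 2 (Plpp3 and Serpina3n). In females only, genotype over all treatments, genotype under fluoxetine, lithium and lithium against fluoxetine each called 0; in males only these gave 1, 0, 0 and 0. With olfactory bulb markers as a covariate fluoxetine called 1 (Aldoc) and lithium 2 (Aqp4 and Serpina3n). With 4 tissue covariates genotype under vehicle called 1 (Atp1b2), genotype under fluoxetine 0 and lithium 3 (Slc39a12, Gjb6 and Serpina3n); Chrdl1 for genotype over all treatments and Cldn10 for lithium against fluoxetine also lost their calls there. Without the 10 striatum-rich libraries genotype over all treatments called 3, genotype under fluoxetine 0, lithium 0 and lithium against fluoxetine 1. Single-sex contrasts compare at most 29 or 30 libraries, within the fit of all 59. The last setting holds fewer libraries. The cause of these changes was not tested.

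With the replicate number as a block, fluoxetine called 1 over both genotypes and 1 within WT-labelled mice (Aldoc in both, adjusted p = 0.0249 and 0.0321, limma), and lithium called 2 (Aqp4 and Serpina3n). Same-numbered libraries had a median r of 0.048 over 319 pairs (−0.37 to 0.553), against −0.019 for libraries of different number. Of 59 libraries, 19 correlated best with their own number. Most of the libraries richest in olfactory bulb markers were numbered 4 or 5, so the number is not free of structure. What it stands for is not given in the labels, and it is not taken as a pairing. The block changed no other member count by over 1.5 times.

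Direction turned for 2 uncalled values: Ntsr2 in genotype by lithium was 0.040 in females only, and Id3 under lithium in WT-labelled mice was 0.026 with 4 tissue covariates. Leaving out 1 library at a time gave 6 to 7 called members for genotype, 1 for genotype under fluoxetine, 0 to 1 for genotype under lithium, 0 to 1 for fluoxetine, 0 to 2 for fluoxetine in WT-labelled mice, 1 to 2 for lithium, 1 to 4 for lithium against fluoxetine 2 for sex and 0 for the rest. Depth is known only as an estimate, and groups of 4 or 5 libraries limit single-treatment contrasts.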
